A study of Arabidopsis thaliana with 12 samples.

Results

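The response to gibberellin was examined in Arabidopsis seedlings that carry mutations in every gene for the soluble gibberellin receptor. The arrays were chosen by their labels alone: 3 arrays of gid1a-1 gid1b-1 gid1c-2 seedlings (called gid1 here) given 100 µM GA3 for 1 h were set against 3 arrays of mock-treated gid1 seedlings, which makes 6 of the 12 arrays of the series. They were described across 22746 of the 22810 probe sets of the ATH1 array, all but the 64 controls. A second mutant, ga-1 (SALK_109115), which is impaired in making gibberellin but keeps its receptor genes, was used as the comparison, with 3 arrays given 100 µM GA3 for 1 h and 3 mock-treated arrays. All seedlings were 7 days old and light-grown on medium, RNA came from about 80 mg of whole seedlings per sample, and the submitters describe the 3 replicates of each group as independent biological ones. No wild type was used here, so every value belongs to a mutant background. The question the gid1 arrays address is whether genes respond to GA3 when the receptors are mutated, and how large a response these arrays could have missed.

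Gibberellins (GA) are growth hormones that promote germination, stem elongation and flowering. GA binds the soluble GID1 receptors, the GA-bound receptor then binds the DELLA proteins, which repress growth and act on transcription in the nucleus, and an SCF ubiquitin ligase that contains the F-box protein SLY1 marks the DELLA proteins for degradation. GA3 is a bioactive gibberellin that plants take up from the medium, and many genes of GA synthesis and perception are themselves held up by DELLA proteins, a feedback that is read as a fall of those transcripts soon after GA is supplied.

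The deposited values are MAS5 signals, linear intensities that the authors had scaled to a common level, with a trimmed mean of 500.0 on every array. Medians of the 6 gid1 arrays lay between 169.7 and 186.8. Log2 values correlated at 0.933 to 0.935 between the GA3 arrays of gid1, at 0.927 to 0.936 between its mock arrays, and at 0.923 to 0.939 across treatments, so the gid1 arrays were as alike across treatments as within them. The 3'-to-5' signal differences of the actin controls, a measure of RNA integrity, were 2.11 ± 0.47 in gid1 with GA3 and 2.09 ± 0.15 in gid1 mock on the log2 scale (SD, n = 3 each, two-sided exact permutation p = 0.9, the smallest reachable p being 0.1). Green-seedling transcripts were abundant on all gid1 arrays: RCA (AT2G39730, Rubisco activase) had 21990.2, 21816.8 and 22653.5 with GA3, against 28560.3, 22892.8 and 23111.9 in mock. A free-text field of the labels names GA3 for the mock samples too, and the titles and source names were followed. Nothing on the gid1 arrays themselves checks that GA3 reached the tissue, so missing treatment and missing response cannot be told apart within them.

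The receptor genes were read first. GID1A (AT3G05120) had signals of 55.5, 60.9 and 64.0 in gid1 with GA3, against 68.9, 70.9 and 42.4 in gid1 mock. The 2 groups overlapped and both lay far below the 639.5 to 710.1 of ga-1 mock. GID1B (AT3G63010) had 112.0, 93.1 and 78.3 in gid1 with GA3, against 47.5, 74.2 and 66.9 in gid1 mock. The log2 difference was 0.60, with a 95% interval of 0.10 to 1.10 and no call by limma (adjusted p = 0.94). Its GA3 arrays all lay above its mock arrays, and all 6 lay below the 457.6 to 544.0 of ga-1 mock. In ga-1 with GA3, where this gene is not mutated, GID1B had 87.6, 73.3 and 79.0, within the range of the gid1 arrays. GID1C (AT5G27320) had 140.2, 116.6 and 185.4 with GA3, against 170.7, 107.0 and 97.6 in mock, with overlapping groups. Its level does not check the label, because the position of the GID1C probes against the gid1c-2 insertion is not known here.

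No probe set was called for GA3 against mock in gid1. Over the 15922 probe sets that passed the filter on low values, limma gave 0 calls in gid1 (0.0%) at a Benjamini-Hochberg adjusted p under 0.05. An unadjusted p under 0.05 was found for 838 (5.26%), where no response at all would give 796. Of these, 426 (2.68%) were higher with GA3 and 412 (2.59%) were lower. The same fit called 129 probe sets in ga-1 (0.81%), of which 109 (0.685%) fell and 20 (0.126%) rose, with 1246 (7.83%) at an unadjusted p under 0.05. The 4 groups shared 1 estimate of the spread, so both counts come from the same margin of error. The median absolute log2 difference was 0.136 in gid1 and 0.143 in ga-1, and the 99th percentile was 0.861 in gid1 and 1.13 in ga-1. From the distribution of p-values, limma's estimate of the share of probe sets with no response was 95.7% or 97.8% in gid1, depending on the method, and 92.5% or 94.5% in ga-1. A test of the difference itself called 35 probe sets (0.22%), with 30 (0.188%) positive and 5 (0.0314%) negative as gid1 minus ga-1. The 35 calls compare the responses of these mutants, and every other probe set has no shown difference.

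**Figure D1:**
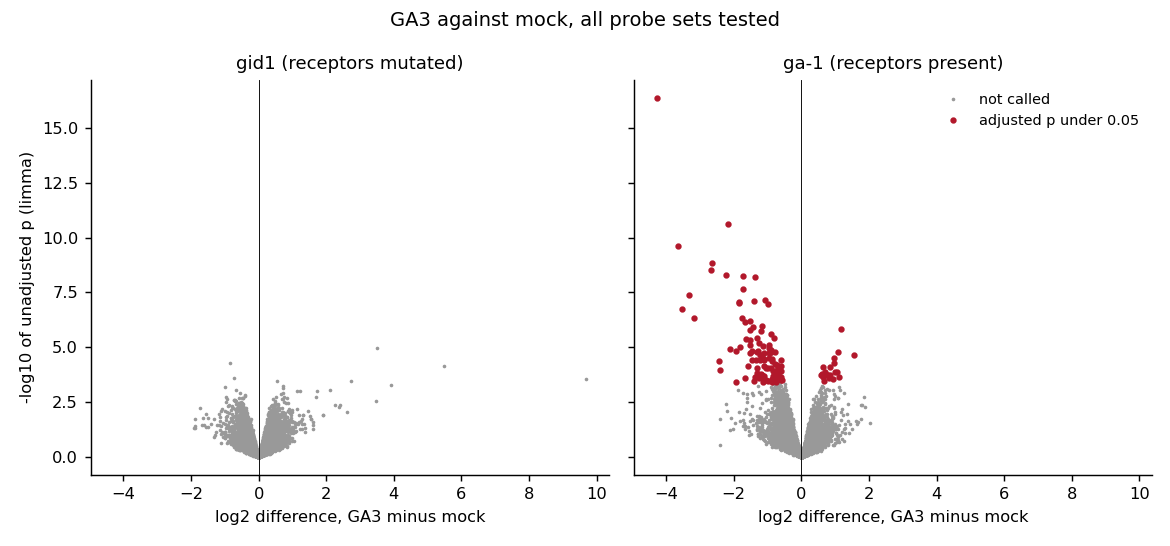
GA3 against mock for the 15922 tested probe sets, in gid1 on the left and ga-1 on the right. The horizontal axis is the log2 difference of MAS5 signals, GA3 minus mock, the vertical axis is minus log10 of the unadjusted limma p, and coloured points have an adjusted p under 0.05. There are 0 coloured points in gid1 and 129 in ga-1, with the few gid1 points far to the right taken up in the paragraphs on seed and late embryogenesis genes.

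The 95% interval of each probe set bounds the response that could have gone unseen. In gid1 the median interval reached 0.38 to each side on the log2 scale, a factor of 1.30. For 8963 probe sets (56.3%) the whole interval lay within 1.5-fold of no change, for 13779 (86.5%) within 2-fold, and for 15763 within 4-fold. The end of the interval farther from zero lay at 1.46-fold for the median probe set, 2.15-fold at the 90th percentile and 3.99-fold at the 99th percentile. A response larger than 2-fold was therefore outside the interval of all but 2143 probe sets, of which 1136 allowed a 2-fold lower level and 1174 allowed a 2-fold higher one. These are intervals for single probe sets. With Bonferroni-adjusted intervals that hold over all 15922 at once, 2645 (16.6%) lay within 2-fold and 11981 (75.2%) within 4-fold.

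The bound depended on the signal. Among the 3981 dimmest probe sets tested, with mean signals of 46.9 to 155.7, the interval lay within 2-fold for 53.2%. The share was 95.4% between 155.7 and 357, 98.2% between 357 and 867, and 99.4% above 867. In these signal classes 1864, 182, 72 and 25 probe sets stayed without a 2-fold bound, so most of the room for a missed response lay among dim transcripts. Below the filter the arrays bounded almost nothing: of the 6824 probe sets left out of the test, 3 had an interval within 2-fold, and the median interval reached 2.15 on the log2 scale to each side. Counted over all 22746 probe sets with no filter, 13485 (59.3%) were bounded within 2-fold. The named probe sets, 8770 of those tested, were bounded within 2-fold for 85.2%, and the 7152 without a single gene name for 88.2%.

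A call needs more than an interval that leaves out zero. To be called alone among 15922, the median probe set needed an observed difference of 1.25 on the log2 scale, or 2.37-fold. The signal classes were computed each on its own, with the adjustment over the 3980 or 3981 probe sets of that class. On that basis the need ran from 4.18-fold in the dimmest class through 2.33-fold and 1.94-fold to 1.72-fold in the brightest. Adjusted over all 15922, the need of each class would be larger. With 10 probe sets called together the observed difference needed was 2.04-fold at the median, and with 100 together 1.77-fold. These are observed sizes at the cut for a call. A true response of such a size could still be observed below the cut and be missed. At a probe set of median error, a smaller observed difference confined to a few transcripts would not have been called with 3 arrays per group.

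**Figure D2:**
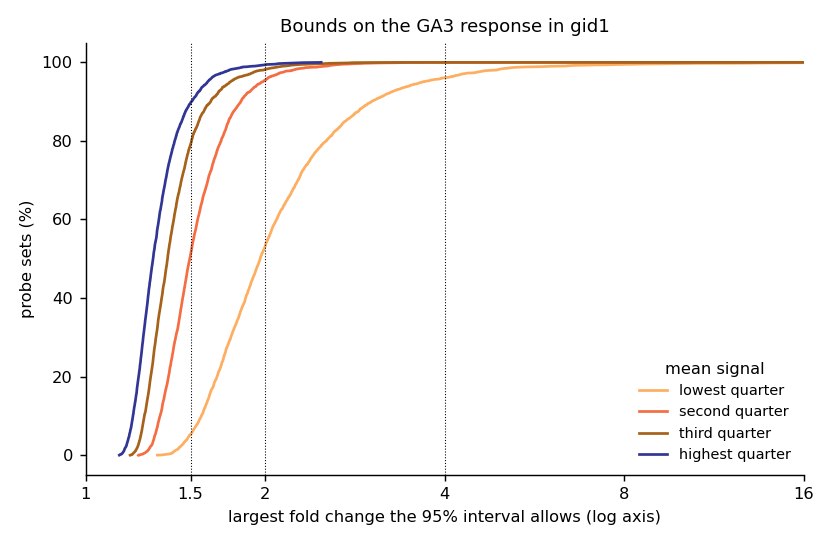
Bounds on the GA3 response in gid1 for the tested probe sets. The horizontal axis (log scale) is the largest fold change, in either direction, that the 95% interval of a probe set allows, drawn up to 16-fold, and the vertical axis is the cumulative percentage of probe sets, with 1 line for each class of mean signal and dotted lines at 1.5-fold, 2-fold and 4-fold. At 2-fold the lines stand at 53.2%, 95.4%, 98.2% and 99.4% from the dimmest to the brightest class.

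The probe sets that responded in ga-1 were read in gid1, whose arrays took no part in choosing them beyond the shared spread and the filter. For the 109 falls of ga-1 the median log2 change was -0.03 in gid1 and -1.12 in ga-1, beside a median of 0.0064 in gid1 over all tested probe sets. Their mean log2 signal was 9.06, 9.05 and 9.08 on the gid1 GA3 arrays, against 9.03, 9.14 and 9.09 on the gid1 mock arrays. It was 7.90, 7.78 and 7.87 on the ga-1 GA3 arrays, against 9.16, 9.12 and 9.17 on the ga-1 mock arrays. All 6 gid1 arrays thus stood near the level of mock-treated ga-1, and the gid1 groups overlapped. The single values in gid1 ran from -0.57 to 0.60, with 58 of them negative and 0 called. For 108 of the 109 the 95% interval in gid1 left out the change seen in ga-1, for 78 it left out 50% of that change, and for 39 it left out 25% of it. The largest fall that the gid1 interval still allowed was 36.2% of the ga-1 fall at the median. These counts and shares take the ga-1 change as exact and leave out its own error. The probe sets were also chosen for being called in ga-1, so their changes there may be overstated. The counts may then be too high and the shares too low, as may those given below for the rises and for single genes. An unadjusted p under 0.05 in gid1 was reached by 10 of the 109, of which 6 were lower and 4 higher (5.26% of all tested probe sets reached it). The difference of responses, tested with the error of both mutants, was called for 27 of the 109. For the others it did not pass the adjustment. The 109 include GID1A and GID1B, which are mutated in gid1 and low there without GA3. Without them 107 falls remain, with a median of -0.04 in gid1 and 25 differences called.

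For the 20 rises of ga-1 the median log2 change was -0.13 in gid1 and 0.85 in ga-1. Their mean log2 signal was 8.73, 8.77 and 8.91 on the gid1 GA3 arrays, against 8.95, 8.87 and 9.05 on the gid1 mock arrays, which overlapped, and 9.77, 9.89 and 9.64 on the ga-1 GA3 arrays, against 8.82, 8.83 and 8.99 on the ga-1 mock arrays. In gid1 5 of the 20 had a positive sign. An unadjusted p under 0.05 was reached by 3 of the 20, all lower with GA3 (5.26% of all tested probe sets reached it). With the ga-1 change again taken as exact, the gid1 interval left it out for all 20, 50% of it for 16 and 25% for 10. The largest rise that the interval allowed was 24.5% of the ga-1 rise at the median. The difference of responses was called for 4 of the 20.

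**Figure D3:**
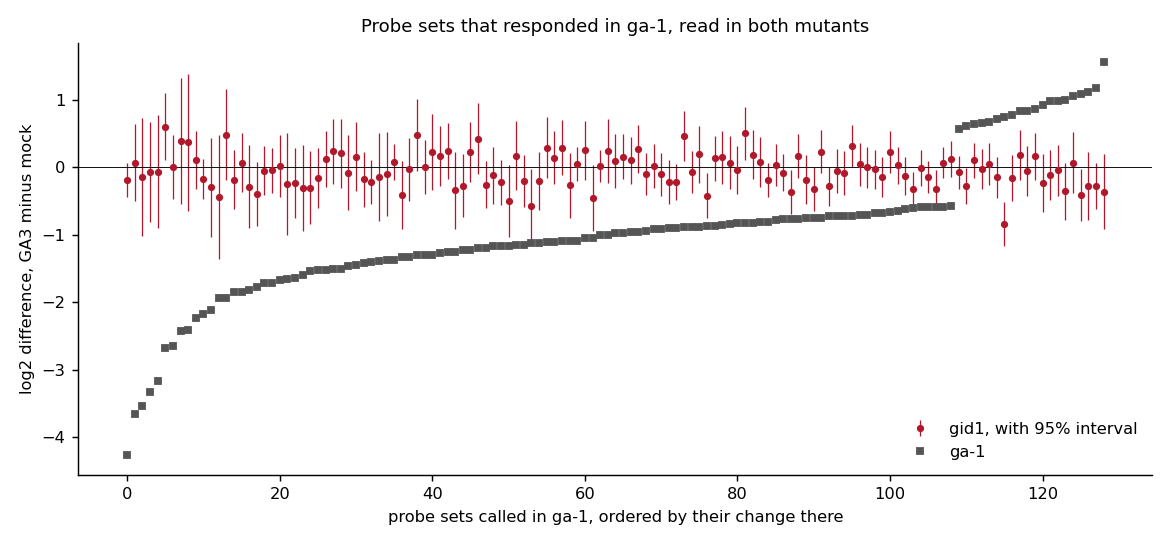
The 129 probe sets called in ga-1, ordered along the horizontal axis by their change there. The vertical axis is the log2 difference, GA3 minus mock. Circles with bars give the change in gid1 with its 95% interval and squares the change in ga-1, whose medians are -1.12 for the falls and 0.85 for the rises. The gid1 circles lie between -0.84 and 0.60.

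Single genes of GA signalling set the size of these bounds. XERICO (AT2G04240), a RING-type protein gene known to be raised by DELLA proteins, had signals of 2014.8, 1818.1 and 1716.0 in gid1 with GA3, against 1933.3, 2079.8 and 2241.9 in gid1 mock. The groups overlapped and the log2 difference was -0.17 (95% interval -0.47 to 0.12, limma adjusted p = 0.94). In ga-1 XERICO fell by 2.18 on the log2 scale (limma adjusted p = 2.0e-07), so the gid1 interval allowed at most 21.5% of that fall, and the difference of responses, 2.01, was called (adjusted p = 0.00012).

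SLY1 (AT4G24210), the F-box subunit that recruits DELLA proteins for degradation, had 1059.3, 854.9 and 805.6 in gid1 with GA3, against 1412.9, 967.7 and 807.0 in gid1 mock, with overlapping groups and a log2 difference of -0.20 (95% interval -0.58 to 0.19). Its fall of 1.15 in ga-1 was called (limma adjusted p = 0.0042), but its difference of responses was not (0.95, adjusted p = 0.24), and the gid1 interval allowed up to 50.8% of the ga-1 fall. SLY2 (AT5G48170), a related F-box protein gene, had 112.7, 88.5 and 105.8 with GA3, against 175.7, 119.8 and 149.7 in mock. Its GA3 arrays all lay lower, yet the interval of -1.15 to 0.10 included zero and also allowed a fall beyond 2-fold. All 4 tested members of the list of DELLA proteins and their regulators had negative values in gid1, from -0.53 to -0.02, with a median of -0.14 and 0 calls. Over all non-control probe sets 50.7% were higher with GA3, and a sign shared by 4 members is not read as a result.

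AT5G50915, a bHLH gene listed among known DELLA-raised genes, had 1699.5, 2040.5 and 2247.0 in gid1 with GA3, against 1041.1, 1432.9 and 1923.5 in mock, a log2 difference of 0.48 (95% interval 0.10 to 0.86, adjusted p = 0.94) with overlapping groups. Its value in ga-1 was -0.78 and was not called (adjusted p = 0.056). Of this list 4 members were tested, all bounded within 2-fold in gid1, with a median of 0.05 in gid1 and -1.15 in ga-1, where 2 fell.

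Among the genes with the largest falls in ga-1, IQD22 (AT4G23060, a calmodulin-binding protein of the IQ67-domain family) had 617.4, 687.5 and 617.9 in gid1 with GA3, against 335.0, 672.8 and 714.5 in mock. The groups overlapped, and the gid1 interval allowed 16.3% of the fall of 1.52 in ga-1. TRM28 (AT5G03670, of the TON1-recruiting-motif family linked to microtubules) had 262.6, 218.4 and 248.1 in gid1 with GA3, against 227.9, 229.4 and 178.8 in mock, and its gid1 interval allowed 19.9% of the ga-1 fall, also 1.52. AT4G16447 had 714.8, 685.7 and 578.3 with GA3, against 441.0, 504.9 and 468.4 in mock, so that its GA3 arrays lay above its mock arrays while it fell by 1.93 in ga-1. For these 3 genes the difference of responses was called (adjusted p of 0.03 for IQD22, 0.047 for TRM28 and 0.034 for AT4G16447).

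Among the 10 named genes with the largest falls in ga-1 the bound was loosest for AT1G29270, AT1G21060 and AT3G60290. AT1G29270 had 389.6, 476.7 and 262.0 in gid1 with GA3, against 560.5, 383.9 and 379.1 in mock, and up to 60.5% of its ga-1 fall stayed within the gid1 interval. For AT1G21060 the share was 59.5%, with 318.2, 296.4 and 240.3 with GA3, all below the 379.9, 334.6 and 337.8 in mock, and for AT3G60290 it was 55.3%. Their differences of responses were not called (adjusted p of 0.55, 0.47 and 0.34), so for these genes a smaller response in gid1 was not shown. Smaller falls could be looser still: for AT4G25260, chosen after its values were seen, the gid1 interval allowed 100.9% of the ga-1 fall, which makes it the one of the 109 whose ga-1 change was not left out. AT1G17830, with a fall of 2.43 in ga-1, had 268.1, 234.1 and 312.4 in gid1 with GA3, against 137.2, 243.3 and 264.4 in mock. Its gid1 interval allowed 22.6% of that fall, but its difference of responses was not called (limma adjusted p = 0.093).

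Among the rises, BZIP61 (AT3G58120, a bZIP transcription factor) had 130.9, 107.1 and 175.7 in gid1 with GA3, against 200.5, 127.2 and 205.0 in mock, and 427.9, 626.1 and 325.3 in ga-1 with GA3, against 182.6, 122.4 and 154.4 in ga-1 mock. The gid1 interval allowed at most 12.9% of its ga-1 rise of 1.55, and the difference of responses was -1.91 (limma adjusted p = 0.047). AT5G65300, AT5G48900 (a pectate lyase-type gene), AT5G45670 and AT1G78170 rose by 0.66 to 0.98 in ga-1 and had values of -0.23 to 0.04 in gid1. For these 4 the gid1 interval allowed 21.0%, 37.7%, 53.8% and 34.2% of the ga-1 rise, and none of their differences of responses was called.

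**Figure D4:**
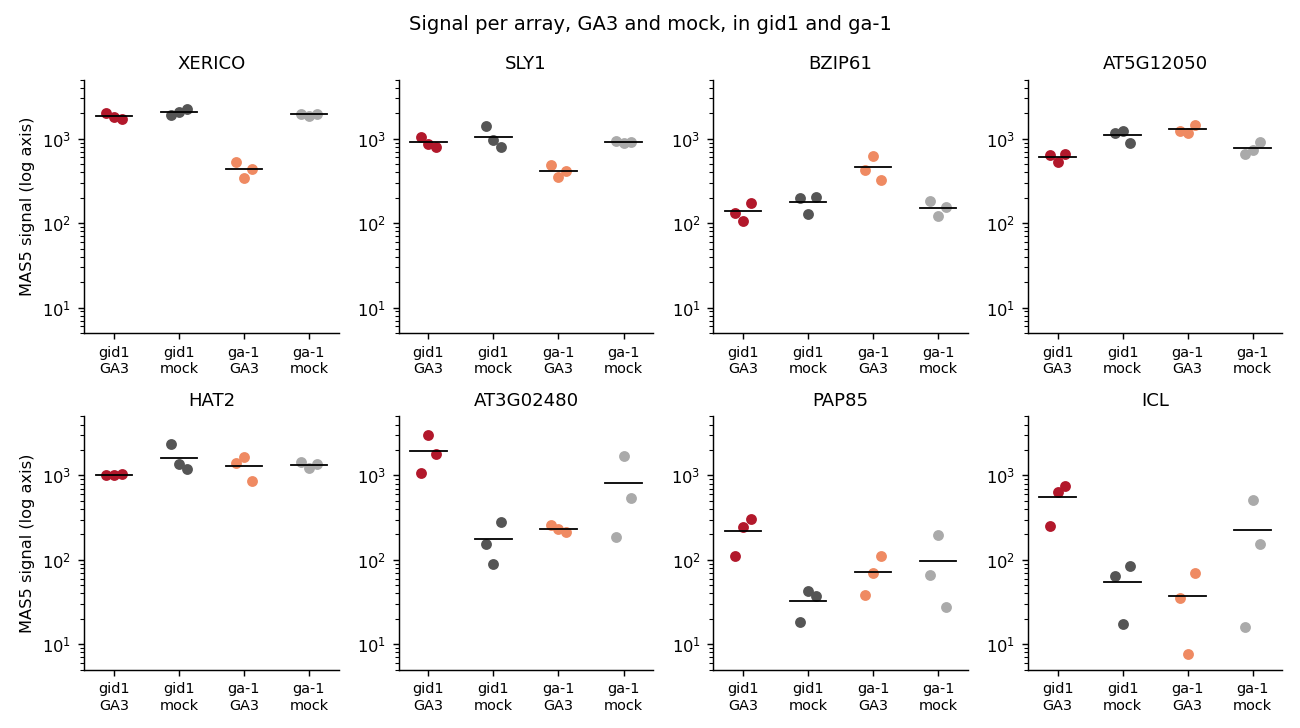
MAS5 signal on every array (log axis) for 8 genes, in gid1 with GA3, gid1 mock, ga-1 with GA3 and ga-1 mock, with points for arrays and a bar for the mean of 3. XERICO, SLY1 and BZIP61 were called in ga-1 and not in gid1, AT5G12050 and HAT2 have their GA3 arrays below mock in gid1, and AT3G02480, PAP85 and ICL have theirs above mock in gid1 while their ga-1 mock arrays spread widely.

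The smallest p among lower values belonged to AT5G12050, which rose in ga-1. It had 650.3, 531.5 and 651.4 in gid1 with GA3, against 1185.6, 1227.7 and 893.7 in gid1 mock, and 1246.1, 1185.7 and 1437.4 in ga-1 with GA3, against 657.1, 743.5 and 922.2 in ga-1 mock. Its GA3 arrays lay below mock in gid1 and above mock in ga-1. The log2 difference in gid1 was -0.84 (95% interval -1.17 to -0.51) and did not pass the adjustment (limma adjusted p = 0.37), while the difference of responses, -1.59, did (adjusted p = 0.0032). The other 9 named probe sets with the smallest p on that side had log2 differences of -0.96 to -0.40 and adjusted p of 0.94. AT1G51160 had 2238.3, 1946.8 and 1918.7 with GA3, against 2862.4, 2673.5 and 2521.8 in mock, and AT3G26510 had 1575.7, 1983.6 and 1683.0, against 2388.1, 2537.6 and 2429.3. Both are bright transcripts whose groups did not overlap, with differences of -0.40 and -0.49. AT1G14180, AT3G11690, AT3G12010, AT3G45260 and AT5G62360 also had all GA3 arrays below mock, with differences of -0.93, -0.73, -0.58, -0.73 and -0.96. AT3G45260 had nearly the same value in both mutants, -0.73 in gid1 and -0.75 in ga-1 (95% interval -1.19 to -0.31), and was called in neither (limma adjusted p of 0.94 and 0.15). For psaJ, a chloroplast-encoded subunit of photosystem I, and AT2G39960 the groups overlapped. With mock replicate 1 left out, AT2G39960 was called in gid1 at -0.99 (limma adjusted p = 0.026). That array had 690.7, against 1240.0 and 1391.2 on the other mock arrays.

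On the other side, AT3G02480 had the smallest p and is taken up with the seed genes. AT5G27820 had 1067.9, 919.2 and 1274.7 in gid1 with GA3, against 534.9, 830.8 and 635.7 in mock, a log2 difference of 0.72 (95% interval 0.36 to 1.07, limma adjusted p = 0.94). AT1G23720, an extensin-like gene read by a probe set that may also hybridise to related genes, had 411.5, 448.3 and 410.6, against 266.0, 241.0 and 266.4, also 0.72. AT1G65500 had 742.4, 646.8 and 659.7 with GA3, against 463.2, 491.1 and 483.4 in mock, a difference of 0.51, and its value in ga-1 was 0.40, likewise not called. AT1G22790, AT2G38840 and AT1G20910 had differences of 0.72, 0.75 and 0.68, and AT1G10640 and AT5G45320 had 1.22 and 2.10 at signals under 200. For all of these the 2 gid1 groups did not overlap. That alone was common: 754 tested probe sets (4.74%) had every GA3 array above every mock array in gid1, and 695 (4.37%) had every GA3 array below.

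Larger differences in gid1 lay mostly to the higher side and among dim probe sets. A difference of at least 2-fold was seen upward for 52 probe sets (0.327%) and downward for 33 (0.207%) in gid1, against 54 (0.339%) upward and 161 (1.01%) downward in ga-1. With the added condition that the arrays did not overlap, gid1 had 33 higher (0.207%) and 6 lower (0.0377%), and ga-1 had 27 higher (0.17%) and 105 lower (0.659%). The filter on low values took the mean over all arrays, including those compared here. A dim probe set could thus pass it through the arrays where it was high. How many of the 33 in gid1 did so was not counted. Of the 33 in gid1, 30 lay in the dimmest class and 16 were named, 5 of these being members of the lists of seed and late embryogenesis genes. Among the 28 that are not on those lists, 7 had the same sign in ga-1. Among named probe sets the widest gaps on the lower side were those of AT5G47330, AT5G40020, AT4G33130, AT4G01030 and AT2G40260, at signals under 250. AT4G33130 was at 5.7, 24.6 and 35.6 with GA3, against 56.5, 65.2 and 51.1 in mock.

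Among the tested probe sets, the intervals of 6 lay wholly beyond 2-fold, all on the higher side. With no filter, 62 of all 22746 intervals lay beyond 2-fold, and their directions were not counted. The 3 named ones of the 6 are genes known from seeds and drying tissues. AT3G02480, a late embryogenesis abundant (LEA) type gene known to respond to abscisic acid, had 1059.1, 3039.7 and 1810.1 in gid1 with GA3, against 155.6, 89.0 and 280.7 in gid1 mock (log2 difference 3.52, 95% interval 2.32 to 4.72, limma adjusted p = 0.18). PAP85 (AT3G22640), a vicilin-like seed storage protein gene, had 111.6, 245.4 and 303.0 with GA3, against 18.3, 42.4 and 37.4 in mock (2.72, adjusted p = 0.82). ICL (AT3G21720), isocitrate lyase of the glyoxylate cycle, through which seedlings turn stored oil into sugar, had 253.9, 644.5 and 752.0 with GA3, against 63.7, 17.2 and 84.3 in mock (3.46, adjusted p = 0.94). In each of these genes the gid1 groups did not overlap.

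The same genes varied among ga-1 seedlings that received no GA3. In ga-1 mock AT3G02480 had 187.5, 1714.4 and 537.6, PAP85 had 67.1, 199.4 and 27.9, and ICL had 16, 508.1 and 155.9, with replicate 2 the highest each time. In ga-1 with GA3 they had 257.5, 230.3 and 214.5, then 38.3, 69.2 and 111.0, then 35.6, 7.6 and 69.5. The other 3 probe sets are unnamed here. The largest difference in gid1 was that of one of them. Its signals were 623.8, 3189.8 and 2898.1 in gid1 with GA3, against 2.6, 1.3 and 3.1 in gid1 mock. In ga-1 they were 1.4, 8.4 and 821.1 with GA3, against 1.6, 2217.7 and 395.6 in mock. Its gid1 mock signals lay near the floor of 1, so the size of this difference rests on near-floor values. It passed the filter on low values only through the arrays where it was high. Another had 878.6, 2675.9 and 3203.4 in gid1 with GA3, against 33.4, 47.1 and 53.6 in gid1 mock, and 29.1, 74.1 and 459.4 in ga-1 with GA3, against 52.6, 2541.7 and 582.5 in ga-1 mock. The spread among the ga-1 arrays enters the shared estimate of error. In a fit of the 6 gid1 arrays alone, limma called 5 probe sets, all higher with GA3: AT3G02480 (adjusted p = 0.0022), ICL (adjusted p = 0.047) and the same 3 unnamed ones (adjusted p of 4.4e-06, 1.2e-05 and 0.047).

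The rest of both lists was mostly higher as well. The lists of seed storage and reserve use and of LEA genes hold 25 named probe sets, of which 7 passed the filter on low values. That filter used all 12 arrays, including those where these genes were high. The lists were written with earlier results of these data known, and these genes were known to stand out. The shares below therefore describe values already seen and are no independent support. In gid1, 21 of the 25 had a higher mean with GA3 (50.7% of all non-control probe sets did). Every GA3 array lay above every mock array for 12 (4.81% of all non-control probe sets) and below for 0 (4.44%). The median log2 difference was 1.78, where that over all non-control probe sets with no filter was 0.0050. An unadjusted p under 0.05 was reached by 10, of which 5 were tested members (5.26% of all tested probe sets reached it). The other 5 lay below the filter. Their p came from the fit with no filter, to which the share of 5.26% does not apply. Even with no filter, limma called 0. LEA18 (AT2G35300), below the filter, had 80.1, 175.2 and 156.1 in gid1 with GA3, against 5.2, 4.1 and 4.5 in mock. AT2G28490, a cupin-type seed storage gene, had 41.6, 141.3 and 199.0, against 26.4, 2.4 and 4.7, and AT3G01570, of the oleosin family that coats oil bodies, had 98.9, 192.1 and 245.1, against 49.1, 38.6 and 47.4. LEA4-5 (AT5G06760) had 80.0, 197.0 and 199.4 with GA3, against 54.8, 35.4 and 69.4 in mock. M10 (AT2G41280), AT2G18540, AT1G03890 and AT1G72100 were the members with a lower mean, at -0.20, -0.13, -1.31 and -1.91, all with overlapping groups.

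By array, the median log2 signal of the 25 was 4.77, 6.17 and 6.11 in gid1 with GA3, against 4.69, 4.10 and 4.17 in gid1 mock. It was 2.93, 4.10 and 4.17 in ga-1 with GA3, against 3.12, 5.72 and 4.78 in ga-1 mock. By this median replicate 1 of gid1 with GA3 stood closer to mock than replicates 2 and 3. Among the 7 tested members it lay above mock as well, with medians of 6.80, 7.62 and 7.98 in gid1 with GA3, against 5.78, 5.41 and 6.12 in gid1 mock. The 18 members below the filter had 4.15, 5.87 and 5.20 in gid1 with GA3, against 2.93, 2.91 and 3.10 in gid1 mock. The ga-1 groups overlapped, with mock replicate 2 near the level of the higher gid1 arrays. In RNA of whole seedlings, a change in how many cells or seedlings express these genes and a change in RNA per cell cannot be told apart. The seed and LEA lists are also the seed markers used here, and the part of seed-type tissue in these values was not tested.

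**Figure D5:**
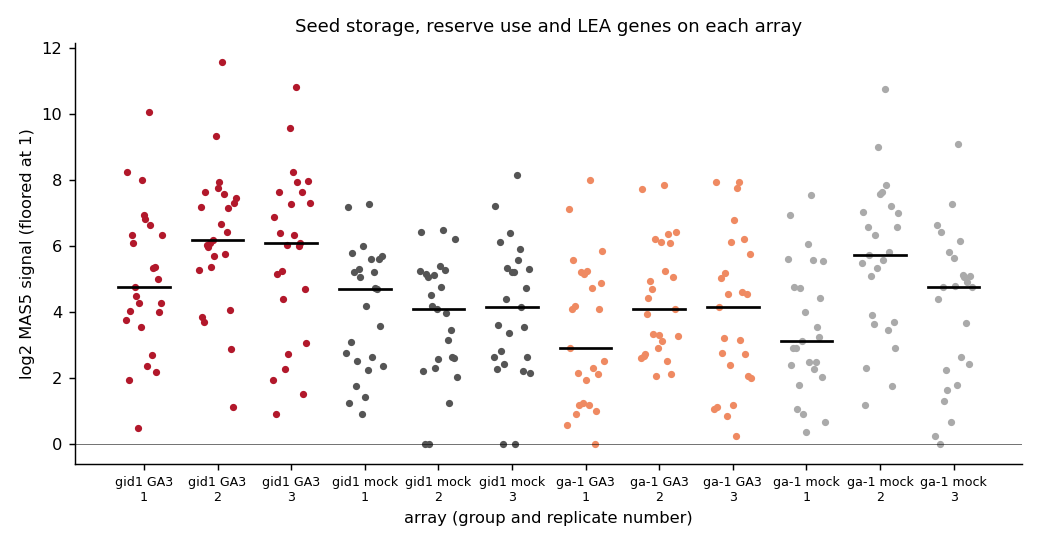
Log2 MAS5 signal (floored at 1) of the 25 named seed storage, reserve use and LEA genes on each of the 12 arrays, with points for genes and a bar for the median. The medians of gid1 with GA3 replicates 2 and 3 (6.17 and 6.11) and of ga-1 mock replicate 2 (5.72) are the highest.

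Gene lists for hormones, growth and stress were read in gid1 by their counts. They were written with earlier results of these data known, so their shares are a description and no independent support. Over 36 lists, 29 had a tested member, with 267 distinct tested probe sets, of which 0 were called. An unadjusted p under 0.05 was found for 25 (9.36%, where it was 5.26% over all tested probe sets), and 205 had intervals within 2-fold (76.8%, where it was 86.5% over all). Cell wall loosening genes, which are commonly raised by GA in growing tissue, showed no call: 14 expansins had a median log2 difference of 0.05 and a range of -0.46 to 0.74, and 6 XTH genes (xyloglucan endotransglucosylases) had a median of -0.14. In ga-1 these 2 lists gave 0 calls as well, with medians of -0.02 and -0.22, so no response was there to be lost in gid1. EXPA7 (AT1G12560), a root-hair expansin, had 101.5, 122.8 and 141.7 with GA3, against 42.9, 91.9 and 97.0 in mock (0.74, 95% interval 0.04 to 1.43). XTH18 (AT4G30280) had 873.3, 495.6 and 549.8, against 1144.5, 1052.3 and 738.7, with overlapping groups (-0.63). XTH32 (AT2G36870) had 1094.1, 1133.0 and 909.3 with GA3, all above the 768.1, 873.7 and 874.8 in mock, yet by only 0.31.

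The 28 tested microtubule-linked genes (IQD, TRM and tubulin) had a median of -0.04 in gid1 and 0 calls. At an unadjusted p under 0.05, 3 of them were lower (2.59% of all tested probe sets were). IQD23 (AT5G62070) had 196.6, 203.2 and 218.0 with GA3, against 339.8, 253.1 and 280.2 in mock (-0.49), and TUB7 (AT2G29550, a beta tubulin) had 968.7, 684.3 and 814.4, against 1081.9, 977.9 and 1136.6 (-0.39), both without overlap (4.37% of all tested probe sets had every GA3 array below mock). GASA peptide genes, a family known for its response to GA, had 3 tested members between -0.23 and 0.14, all bounded within 2-fold. None of the 3 was called in ga-1 either, where their median was 0.03. AT1G22690 among them had 4701.8, 4260.0 and 3779.0 with GA3, against 4295.2, 4244.6 and 3072.0 in mock.

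Of the 3 tested carboxylesterase genes (CXE), the wider family to which GID1 belongs, none was called. CXE18 (AT5G23530) had 265.8, 263.7 and 350.7 with GA3, against 365.9, 275.2 and 413.1 in mock (-0.25, 95% interval -0.63 to 0.12). CXE20 (AT5G62180) was hardly bounded, with an interval of -0.82 to 2.35, since its mock arrays ran from 6.8 to 147.8.

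Other hormone lists were thinly covered. The 7 tested auxin early response genes had a median of -0.13 and 0 calls. HAT2 (AT5G47370), a homeodomain transcription factor known to be induced quickly by auxin, had 1013.9, 1001.6 and 1046.1 in gid1 with GA3, against 2336.3, 1349.1 and 1206.8 in mock (-0.61, 95% interval -1.09 to -0.14), all GA3 arrays lying below mock and mock replicate 1 well above the rest. GH3.9 (AT2G47750) had -0.59 at signals under 100. The single tested type-A response regulator of cytokinin signalling, ARR15 (AT1G74890), had 0.06. Of the 5 abscisic acid response genes, the 2 with an unadjusted p under 0.05 (5.26% of all tested probe sets reached it) were AT3G02480 and LEA4-5, which are also on the LEA list. Genes of GA synthesis, GA inactivation, ethylene, jasmonate and brassinosteroid synthesis had no probe set named by the annotation, so they were not analysed by name, and their probe sets may be among the unnamed ones tested.

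Genes for handling foreign chemicals gave no call in gid1. The 11 tested glutathione transferases ran from -0.32 to 0.48 with a median of -0.05, the 12 cytochromes P450 from -0.43 to 0.26, and the 30 UDP-glycosyltransferases from -0.50 to 0.92 with a median of 0.10. The highest of these, UGT71C3 (AT1G07260), had 112.8, 135.5 and 108.6 with GA3, against 42.7, 65.1 and 87.9 in mock (0.92, 95% interval 0.25 to 1.59). UGT74B1 (AT1G24100), which acts in glucosinolate synthesis, had 1082.3, 944.1 and 1384.5, against 883.6, 865.3 and 780.7 (0.41). UGT71C4 and UGT85A4, named because they were the only others of this list with an unadjusted p under 0.05 (5.26% of all tested probe sets reached it), were lower with GA3, at -0.34 and -0.46. GSTU22 (AT1G78340) had 187.0, 243.2 and 296.0, against 164.6, 128.9 and 232.4 (0.48), with overlapping groups. Touch and early stress genes gave 0.23 for CML38 (AT1G76650) and 0.19 for STZ (AT1G27730), both with overlap. The 8 aldehyde dehydrogenases were all bounded within 2-fold, with interval ends no farther out than -0.52 and 0.58.

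Signal peptides, sugar transporters and wall enzymes gave no call either. The 10 tested RALF and CLE peptide genes had a median of -0.05. RALFL32 (AT4G14010) had 1055.9, 900.8 and 707.7 with GA3, against 671.6, 724.2 and 689.1 in mock (0.34). The 6 SWEET sugar transporters ran from -0.30 for SWEET1 (AT1G21460) to 0.32 for SWEET16 (AT3G16690). The 16 xylan acetylation genes (TBL) had a median of -0.07 and the 11 beta-glucosidases (BGLU) of -0.05, with BGLU28 (AT2G44460) at 570.0, 474.6 and 1110.5 with GA3, against 1098.0, 894.1 and 1426.9 in mock (-0.74). GI (AT1G22770), a clock gene, had 210.3, 91.7 and 241.2, against 162.7, 236.5 and 270.1, with overlap.

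Leaf and plastid transcripts gave no call. The 3 tested LHCB light-harvesting genes lay between -0.26 and -0.08. LHCB4.2 (AT3G08940) had 10636.2, 12612.3 and 12075.9 with GA3, against 16201.4, 12901.5 and 13308.8 in mock, without overlap and not called (-0.26, 95% interval -0.51 to -0.01). Of 69 chloroplast-encoded probe sets 50 were bounded within 2-fold (86.5% of all tested probe sets were), and the median of the 69 was -0.003. The 2 with an unadjusted p under 0.05 (5.26% of all tested probe sets reached it) were psaJ and clpP, the plastid protease subunit gene, both lower. The root markers tested, EXPA7 and EXPA18 (AT1G62980), had 0.74 and 0.10, and SPT (AT4G36930), on the list of flower markers, had -0.09.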

How the data were processed

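RNA of whole seedlings was hybridised to ATH1 arrays, per the labels. The authors deposited linear intensities. These are MAS5 signals of unstated version, per the submitters' processing notes. No scanner file or detection call was used, and the number of arrays limits the precision. Groups came from sample titles. Values were floored at 1 (0.557% of the gid1 values lay below) and taken to log2. The 64 control probe sets and those with a mean log2 below the 30th percentile (5.55) were left out, leaving 15922. In R 4.3.3, limma 3.58.1 (lmFit, eBayes with trend) was fitted to 4 group means over 12 arrays, with Benjamini-Hochberg adjustment at 0.05 and 95% intervals. The observed difference needed for a call was computed from each probe set's error, adjusted for each signal class over that class alone. The procedure was tested on simulated data. Names came from the platform's annotation and from a table of TAIR10.1 genes: 13513 had 1 symbol, 503 several, 8794 were not listed, and 13436 matched the table. No genome build is named by the files, so no coordinates are given.

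The members and the gene lists were chosen with earlier results of these data known, and the lists were extended after it was seen which symbols the annotation names. The rule for named genes took the receptors, the 10 named probe sets with the smallest p on each side in gid1, any called in gid1 under an alternative, the 2 list members with the smallest p, the 10 largest falls and 6 largest rises in ga-1, and the 5 widest gaps on each side. The seed and LEA members were all looked up, as their values were known to stand out. Alternatives were quantile or median scaling, other filters, log2(value + 32), no trend, robust eBayes, array weights, a block for the replicate number, leaving out each array, the gid1 arrays alone, limma's treat test and other thresholds.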

Additional observations from a re-analysis of the deposited data

Results flagged for a closer look

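The response to GA3 differed between gid1 and ga-1 by the test of the difference for 35 probe sets (limma, adjusted p under 0.05). Named here, as gid1 minus ga-1 on the log2 scale, were GID1B at 3.28, AT4G16447 at 2.42, XERICO at 2.01, IQD22 at 1.75, TRM28 at 1.72 and GID1A at 1.70, all of which fell in ga-1. GID1A and GID1B are themselves mutated in gid1. Their gid1 mock signals (42.4 to 70.9 and 47.5 to 74.2) left little room for a fall, so their differences cannot be read as a lost response. BZIP61 at -1.91 and AT5G12050 at -1.59 rose in ga-1. AT3G02480 at 4.77 was called in neither mutant in the fit over all 12 arrays (in the gid1 arrays alone its adjusted p was 0.0022), and its ga-1 mock arrays ran from 187.5 to 1714.4.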

How the results depend on the processing

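The count of 0 calls in gid1 became 2 with the replicate block, 5 with the gid1 arrays alone, 1 at an adjusted p under 0.2 and 3 at an adjusted p under 0.5, and ran from 0 to 2 with each array left out. The calls other than those at a relaxed threshold came from 6 probe sets: AT3G02480 (without ga-1 mock replicate 1 or 2, and in gid1 alone), ICL (in gid1 alone), 3 unnamed ones (all in gid1 alone, 2 of them with the block and 1 without ga-1 mock replicate 1) and AT2G39960 (without gid1 mock replicate 1). The 3 at an adjusted p under 0.5 were AT3G02480, AT5G12050 and 1 unnamed probe set. Apart from the relaxed thresholds, which were applied to counts alone, of 1967 values of 91 tested named probe sets, 1956 kept direction and call, and 11 became calls. Same-numbered gid1 arrays correlated in their deviations at -0.015, -0.10 and 0.10, so the numbers did not pair them. The 13779 probe sets bounded within 2-fold became 2645 with Bonferroni intervals and 12952 to 14013 with an array left out. The ga-1 count of 129 became 60 with no trend and 66 to 130 with an array left out. The count of differing responses, 35, became 12 with no trend, 23 with robust eBayes and 17 to 65 with an array left out, lowest without ga-1 mock replicate 2 and highest without ga-1 GA3 replicate 3. Calls on the gene lists, 0, became 2 in gid1 alone (ICL and AT3G02480) and 0 to 1 with an array left out. The median in gid1 of the probe sets that rose in ga-1, -0.13, became -0.32 for the 4 with an adjusted p under 0.01, -0.28 for the 5 with a 2-fold rise and -0.160 to -0.0564 with an array left out. That of the falls in ga-1 lay between -0.0384 and -0.0150. The cause of these shifts was not tested. Signal limits the bounds: 6824 dim probe sets were hardly bounded, and 3 arrays per group leave small responses of single genes likely to be missed.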
